A study of Mus musculus with 15 samples.

Results

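Immediate early genes are described here in mouse testis by 9 members: Fos, Fosb, Jun, Junb, Egr1, Atf3, Ier2, Ier3 and Dusp1. They were chosen by name, and each matched a single Ensembl identifier among the 36118 rows of a deposited table of normalised counts. All 9 averaged at least 10 normalised counts and entered the tests. RNA came from whole testes in 5 groups of 3 libraries, labelled Control, MTX, HMS-I1, AA and TSA, and the genotype C57/BL6 is shared by all. The labels do not spell out the treatment abbreviations and give no dose, route, duration or age, nor what the Control mice received. The HMS-I1 group rests on the titles, which name its 3 replicates, because the treatment entries differ among them (HMS-I1, HMS-I2, HMS-I3). The labels do not state whether each replicate is its own animal; p-values therefore reflect only the spread between these libraries, which may be technical. They also give no time from dissection to extraction.

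Immediate early genes are transcribed within minutes of a stimulus, from factors already present in the cell and without new protein synthesis. Kinase cascades and cAMP signalling activate the serum response factor, its partners and CREB at their promoters, and the transcripts are short-lived. Many of the products are transcription factors. Fos and Jun proteins pair through leucine zippers to form the AP-1 complex, Egr1 binds DNA through zinc fingers, and Atf3 is a stress-induced member of the ATF/CREB group. Dusp1 is a phosphatase that inactivates mitogen-activated protein kinases and so closes the loop. Because they answer to wounding, warmth, low oxygen and cell dissociation, these transcripts are also known to move with the handling of tissue.

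The promoters are shown because they are where such signals arrive, and 4 were chosen for the members that the results below turn on. A RefSeq table for build GRCm38.p6 matched 7 of the 9 members; Egr1 and Ier2 were not matched. Each line below gives the 250 bases before the transcription start, 5′ to 3′ on the strand of the gene, with searched motifs in capitals. The motifs, searched on both strands, were the cAMP response element TGACGTCA, its core TGACG (which lies within the full element), the AP-1 site TGANTCA, the TATA box TATAAA, the Egr site GCGNGGGCG, and the CArG box of the serum response factor. A pair of AP-1 variants, TGACATCA and TTACCTCA, was added for Jun after its sequence had been seen.
Fos (chr12:85473640-85473889, plus strand): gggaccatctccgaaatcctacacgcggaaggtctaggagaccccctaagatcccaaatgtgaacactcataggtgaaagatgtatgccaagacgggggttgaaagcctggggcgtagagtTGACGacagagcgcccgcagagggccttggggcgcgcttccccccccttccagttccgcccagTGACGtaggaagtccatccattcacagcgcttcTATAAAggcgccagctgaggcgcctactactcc
Jun (chr4:95052223-95052472, minus strand): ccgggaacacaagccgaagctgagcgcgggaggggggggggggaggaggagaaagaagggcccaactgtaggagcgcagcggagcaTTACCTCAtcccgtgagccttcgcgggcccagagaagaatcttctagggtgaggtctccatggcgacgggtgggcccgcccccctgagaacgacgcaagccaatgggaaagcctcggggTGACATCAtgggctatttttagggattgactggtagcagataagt
Atf3 (chr1:191183334-191183583, minus strand): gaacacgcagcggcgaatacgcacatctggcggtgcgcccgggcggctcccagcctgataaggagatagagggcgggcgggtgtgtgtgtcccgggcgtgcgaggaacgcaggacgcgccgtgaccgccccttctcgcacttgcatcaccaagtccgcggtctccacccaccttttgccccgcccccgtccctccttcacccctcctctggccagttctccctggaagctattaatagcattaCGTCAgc
Dusp1 (chr17:26508473-26508722, minus strand): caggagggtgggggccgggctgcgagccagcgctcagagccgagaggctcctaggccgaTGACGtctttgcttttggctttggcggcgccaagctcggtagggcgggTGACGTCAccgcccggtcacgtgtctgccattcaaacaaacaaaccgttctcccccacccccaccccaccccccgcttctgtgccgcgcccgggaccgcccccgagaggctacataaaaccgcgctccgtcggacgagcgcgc

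The Fos window held a TATA box 28 to 33 bases before the start and the core TGACG at 62 to 66 and 125 to 129 bases. The Dusp1 window held the full element TGACGTCA at 136 to 143 bases, and the Jun window held the variants TGACATCA at 38 to 45 and TTACCTCA at 157 to 164 bases. The Atf3 window held the core on the other strand at 3 to 7 bases. Over the 7 matched members, 5 held the core TGACG, against 17.8% of all 32851 promoter windows of this length. The full element was in 1 member (Dusp1) and in 1.55% of all windows, the TATA box in 1 (Fos) and in 12.4%, and the Egr site in 1 (Fosb) and in 4.70%. The variants TGACATCA and TTACCTCA were in 2.93% and 0.728% of all windows. No member window held TGANTCA (6.75% of all windows) or a CArG box (1.47%), which says only that these letters are not within 250 bases of the start. A match is a description of the sequence and not evidence of binding.

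The libraries fall into a pair of sets, told apart by their histone transcripts. The first set, 6 libraries, consists of Control 1 and Control 2 with MTX 1, HMS-I1 1, AA 1 and TSA 1. Its mean log2 value over 60 histone genes was 7.79 to 8.82, and 13 mitochondrial genes took 1.08% to 1.4% of its signal. In the other 9 libraries, called the second set, these measures were 2.95 to 3.86 and 3.54% to 13.7%. The sets also differ in depth. Whole reads could not be recovered for most genes. The most frequent low value in a library was taken as what 1 read was worth for genes without a length correction. Its double was the value of 6 to 45 genes per library, so the depths are rough. Libraries of the first set had 1.98 to 2.62 normalised counts per read, those of the second 0.453 to 0.917, which puts their depths at about 11600000 to 15500000 and 31000000 to 68900000 reads. Set and depth cannot be told apart. Markers of Sertoli cells, Leydig cells, spermatogonia, spermatocytes and spermatids were all above 0 in every library, and 3 to 5 of 6 epididymis markers were at 0. In whole tissue, more cells of a type and more RNA per cell cannot be told apart.

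Compared per kilobase of the longest coding transcript, Jun and Dusp1 were the most abundant members, with medians of 103 and 91.4 normalised counts per kilobase over the 15 libraries. Junb (59.1), Ier2 (55.2) and Ier3 (44.4) followed, then Egr1 (31.0), and Fos (9.63), Atf3 (8.82) and Fosb (4.67) were lowest. No neighbours in this order differed beyond their spread: each mean log2 difference was smaller than its SD over the 15 libraries. Jun stood above Dusp1 in 9 of 15 libraries (mean log2 difference per kilobase 0.16, SD 0.94), namely all those of the second set. Junb stood above Ier2 in 8 libraries and Atf3 above Fosb in 8. In the other neighbouring pairs the upper member was higher in 11 or 12 of 15. Among the AP-1 partners, the medians of Jun and Junb lay above those of Fos and Fosb.

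**Figure D1:**
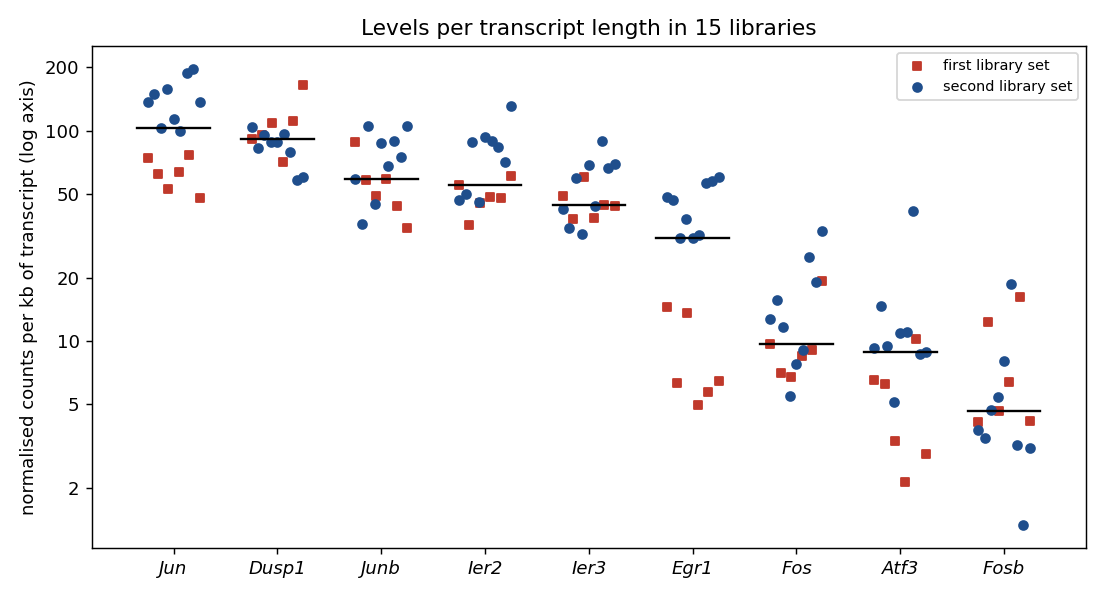
Normalised counts per kilobase of the longest coding transcript (log axis) for the 9 members, in order of their medians (black lines). Each point is 1 of 15 libraries, as red squares for the first library set and blue circles for the second; Jun and Dusp1 have medians of 103 and 91.4, Fosb has 4.67, and Egr1 splits by set.

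In none of the 4 comparisons with Control did a member pass the threshold, an adjusted p under 0.05 in limma. These comparisons share the 3 Control libraries. At that threshold 0% of the 17896 tested genes passed under MTX, HMS-I1, AA or TSA, or in the F-test across the 5 groups. At an unadjusted p under 0.05 there were 98 genes for MTX, 73 for HMS-I1, 143 under AA, 1027 under TSA and 230 in the F-test. Those are 0.548%, 0.408%, 0.799%, 5.74% and 1.29% of the tested genes, where well calibrated p-values give about 1 in 20 by chance alone. Of the members, Fos under TSA alone was below 0.05 unadjusted. Without TSA replicate 1, limma called 992 genes (5.54%) under TSA, and no member was among them. TSA replicate 1 is the only TSA library of the first set. That fit therefore set TSA libraries of the second set against Control libraries of both sets, so treatment and set were mixed. Differences below are means of log2(normalised count + 1) in a treatment minus those in Control, with the standard error (SE) of the model; this scale understates the change of low genes.

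**Figure D2:**
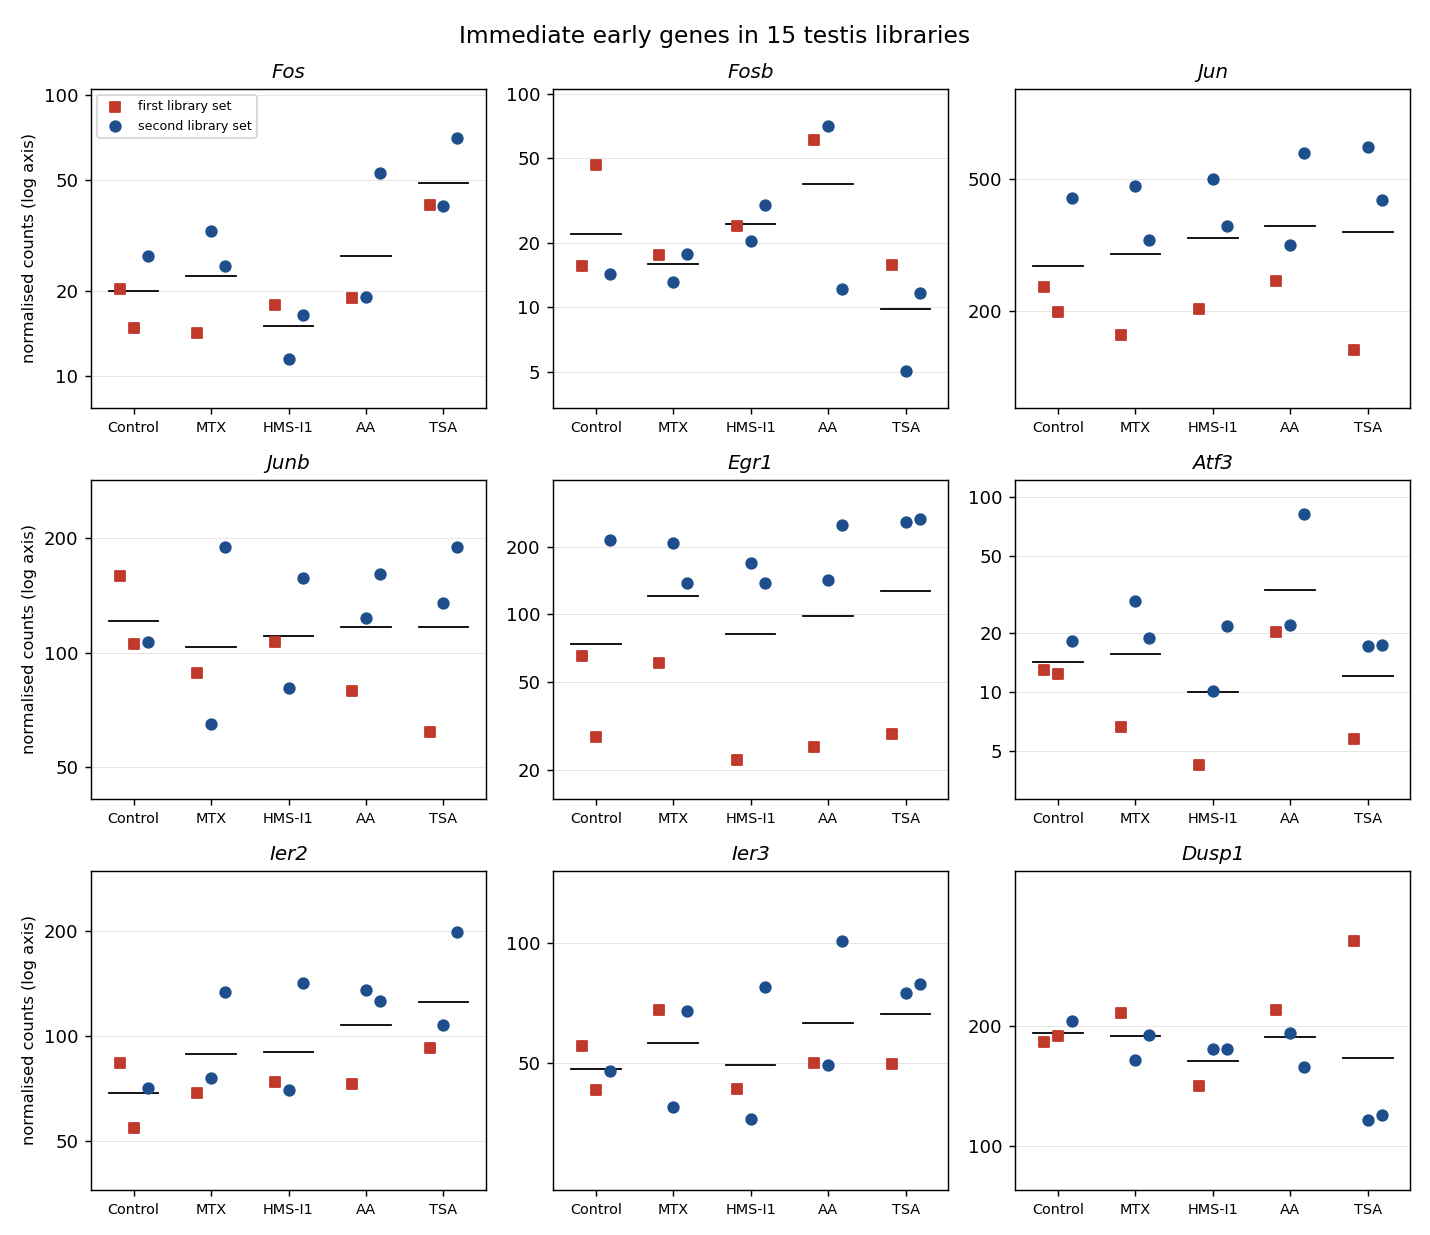
Normalised counts (log axis) of the 9 members in the 5 groups, with red squares for the first library set, blue circles for the second and a black line at the mean of each group on the log2 scale (n = 3 libraries). Fos in TSA (40.3 to 70.3) lies above every Control library (14.8 to 26.8), and Egr1 and Jun split by library set in every group.

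Fos, the partner that Jun needs for the strongest AP-1 dimer, was highest under TSA. Its normalised counts were 40.6, 40.3 and 70.3 in TSA replicates 1 to 3 and 20.3, 14.8 and 26.8 in the Control libraries. The groups did not overlap, and AA replicate 3, at 52.7, was the only other library above 40. The means were 50.4 ± 17.2 and 20.6 ± 5.99 (SD, n = 3 each), a log2 difference of 1.24 (SE 0.50), or 2.36-fold. Its unadjusted p was 0.0268 and its adjusted p 0.855 (limma), so the difference did not pass. Taken within each library set it was 1.18 (first) and 0.97 (second), and with the set as a term 1.08 (SE 0.44). In the shallower first set, the TSA value rested on about 17.9 reads and the Control values on about 10.2 and 7.0. Over all alternatives the adjusted p ran from 0.232 to 1, and the difference from 0.96 to 1.44.

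In the other groups Fos lay near Control. It was at 14.2, 32.9 and 24.7 in MTX, at 17.9, 11.5 and 16.4 in HMS-I1 and at 19.0, 19.1 and 52.7 in AA. The log2 differences from Control were 0.17 (SE 0.50), -0.39 (SE 0.50) and 0.40 (SE 0.50), all with an adjusted p of 1 or 1.00 (limma). The MTX difference was -0.09 without MTX replicate 2 and -0.04 without Control replicate 2, and the AA difference was -0.07 without AA replicate 3.

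Fosb, a relative of Fos that also pairs with Jun proteins, did not follow it. It was lowest in TSA, at 15.7, 5.05 and 11.7, against 15.6, 46.7 and 14.3 in Control, with ranges that overlap. The TSA values rested on about 6.9, 9.6 and 18.2 reads and the Control values on about 7.9, 22.0 and 22.0. The log2 difference was -1.08 (SE 0.67; adjusted p = 0.886, limma), and without Control replicate 2 it was -0.55. In AA it was at 61.3, 70.7 and 12.1, high in replicates 1 and 2 and low in replicate 3, the library in which Fos was highest of that group. The AA difference was 0.76 (SE 0.67), 1.54 without AA replicate 3 (unadjusted p = 0.0243, adjusted p = 1, limma) and 0.32 without AA replicate 2. In MTX and HMS-I1 it ranged over 13.1 to 17.8 and 20.4 to 30.4, with differences of -0.43 and 0.16 (SE 0.67 each).

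Jun and Junb, which form AP-1 with Fos proteins or with each other, showed no difference between groups beyond the spread within them. Jun was at 236, 198 and 438 in Control and at 152, 628 and 434 in TSA. The means were 291 ± 129 and 405 ± 239 (SD, n = 3 each), a log2 difference of 0.34 (SE 0.57) that became -0.06 (SE 0.29) with the library set as a term. In MTX it was at 168, 477 and 328, in HMS-I1 at 203, 501 and 362, and in AA at 245, 316 and 602. Each group held 1 or 2 low libraries, which are those of the first set. The differences of 0.12, 0.28 and 0.40 (SE 0.57 each) were -0.27, -0.12 and 0.00128 with the set as a term. Junb spanned 105 to 160 in Control, 65.2 to 190.0 in MTX, 81.0 to 157 in HMS-I1, 79.6 to 161 in AA and 62.0 to 189 in TSA. Its 4 differences from Control lay between -0.23 and -0.06 (SE 0.49 each), and the TSA value was -1.05 (first set) and 0.57 (second set).

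Egr1, a zinc finger factor, differed most between the library sets. It was at 64.8, 28.3, 60.6, 22.3, 25.5 and 29.0 in the first set (Control 1 and 2, then MTX 1, HMS-I1 1, AA 1 and TSA 1). The second-set libraries ran from 139 to 268, with a median of 210. The sets did not overlap, and the mean log2 values differed by 2.43 (5.39-fold). Jun was the other member without overlap: its first-set libraries spanned 152 to 245 and its second-set libraries 316 to 628, a difference of 1.16 (2.23-fold). So 2 of 9 members were lower in all 6 libraries of the first set than in all 9 of the second, and 12% of all tested genes were. No member was higher in all 6, and 12.8% of genes were. The sets were told apart from these same libraries, and their difference is given without a test.

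The remaining members overlapped between the sets. The second set was higher by 1.19 for Atf3, 0.60 for Ier2, 0.50 for Fos, 0.40 for Junb and 0.24 for Ier3 on the log2 scale, and lower by 0.59 for Fosb and 0.33 for Dusp1. Moving with the sets were the histone transcripts that define them, the depth and the mitochondrial share, all given above. Markers of other cells and genes that answer to warmth and low oxygen moved too. Smooth muscle and peritubular myoid markers were higher in the second set by a median of 1.22, and 4 of 6 were lower in all libraries of the first set, beside 12% of all tested genes. For Sertoli markers the median was 0.89 and 6 of 10 were lower in all. It was 0.66 with 5 of 12 for heat shock genes, and 0.69 with 5 of 11 for low oxygen genes. The reverse, higher in all libraries of the first set, held for 12.8% of all tested genes. It held for 1 of 6 myoid markers (Actg2), 1 of 11 low oxygen genes (Pfkfb3) and 0 Sertoli or heat shock genes. Spermatogonial markers were higher in the second set by 0.83, those of macrophages and other leukocytes by 0.71 and Leydig markers by 0.70. Endothelial markers were higher there by 0.52, red cell markers by 0.49 and spermatocyte markers by 0.17. Lower in the second set were markers of elongating spermatids (median -0.89), fat cells (-0.56) and round spermatids (-0.18), and the single tested epididymis marker (-0.36). Lower in all libraries of the first set were 3 of 8 spermatogonial, 3 of 8 Leydig and 2 of 7 endothelial markers. So were 1 of 11 macrophage, 1 of 5 red cell and 1 of 6 round spermatid markers. Higher in all of them were 2 of 6 elongating spermatid, 1 of 6 round spermatid and 1 of 9 fat cell markers. Spermatocyte and epididymis markers had 0 in either direction. The part of these in the difference of Egr1 and Jun was not tested.

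Against Control, Egr1 had wide errors, and every group held libraries of both sets. Its differences from Control were MTX 0.70, HMS-I1 0.14, AA 0.40 and TSA 0.78 (SE 1.11 each; adjusted p from 0.891 to 1, limma). With the set as a term they were -0.13, -0.70, -0.43 and -0.06 (SE 0.40 each), so each changed sign. Within the second set TSA replicates 2 and 3, at 260 and 268, and AA replicate 3, at 253, were the highest libraries, and Control replicate 3 was at 217.

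Atf3, which represses or activates stress genes according to its partner, was highest in AA. It was at 20.2, 22.0 and 81.8 in AA and at 13, 12.4 and 18.3 in Control, which do not overlap. The means were 41.4 ± 35.1 and 14.6 ± 3.26 (SD, n = 3 each), a log2 difference of 1.16 (SE 0.74; unadjusted p = 0.139, adjusted p = 1.00, limma). AA replicate 3 carried much of it, and without that library the difference was 0.53. The other groups lay lower and overlapped Control, at 6.63, 29.2 and 18.9 in MTX, 4.25, 10.1 and 21.8 in HMS-I1 and 5.78, 17.2 and 17.5 in TSA. In the first set Atf3 rested on about 1.7 to 9.9 reads, so differences there were barely detectable at this depth. With the set as a term the 4 differences were MTX -0.30, HMS-I1 -0.90, AA 0.75 and TSA -0.64 (SE 0.52 each).

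Markers of other cells were also uneven in AA. Leydig markers summed to 38211 to 57713 in AA and 28593 to 35710 in Control, without overlap. Macrophage and leukocyte markers summed to 6787 to 14768 against 6289 to 8344, with the highest sum in AA replicate 3, and endothelial markers to 1414 to 2343 against 1270 to 1781. Such sums were also found in TSA, where Atf3 was at 17.2 in replicate 2 and 17.5 in replicate 3. Macrophage and leukocyte markers summed to 14426 in TSA replicate 2, and Leydig markers to 53759 and 61237 in replicates 2 and 3. In AA 10 of 11 macrophage markers were higher than in Control (median 0.51), as were 7 of 7 endothelial (0.55), 7 of 8 Leydig (0.50), 7 of 8 spermatogonial (0.37), 10 of 10 Sertoli (0.36), 5 of 6 myoid (0.32) and 4 of 5 red cell markers (0.16). Elongating spermatid markers had 0 of 6 higher (median -0.72), the widest shift of a list in AA, and 2 of the 6 lay below all Control libraries, beside 2.23% of tested genes. Round spermatid (2 of 6, -0.02), spermatocyte (2 of 8, -0.16) and fat cell markers (4 of 9, -0.03) and the epididymis marker (-0.13) lay at or below Control. With the library set as a term the medians were 0.27 for macrophages, 0.18 for endothelium, 0.34 for Leydig, -0.05 for Sertoli and -0.42 for elongating spermatid markers. They were 0.12 for spermatogonial, -0.08 for myoid, -0.08 for red cell and 0.32 for fat cell markers. Spermatocyte markers were then at -0.13, round spermatid markers at -0.09 and the epididymis marker at 0.00055. Those of Sertoli, myoid, red cell and fat cell markers thus changed sign, as did the epididymis value. Their part in the Atf3 values was not tested.

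Ier2 and Ier3 are small early response proteins, the first nuclear and linked to growth, the second a regulator of survival under stress. Ier2 was at 92.3, 107 and 199 in TSA, above Control at 84.0, 54.4 and 71.2. The log2 difference was 0.86 (SE 0.42; unadjusted p = 0.0606, adjusted p = 0.882, limma). Within the sets it was 0.44 (first) and 1.03 (second), and leaving out TSA replicate 3 gave 0.53. It was at 72.8, 136 and 127 in AA, a difference of 0.64 (SE 0.42), and at 68.9, 76.0 and 134 in MTX and 73.8, 70.0 and 142 in HMS-I1, differences of 0.36 and 0.39 (SE 0.42 each). Without MTX replicate 3 the MTX difference was 0.07, and without HMS-I1 replicate 3 that of HMS-I1 was 0.06. Ier3 spanned 42.8 to 55.2 in Control and 49.7 to 78.8 in TSA, with differences of 0.45 for TSA, 0.38 for AA, 0.21 for MTX and 0.04 for HMS-I1 (SE 0.40 each). The AA difference was 0.04 without AA replicate 3, and the MTX difference 0.08 without MTX replicate 1. None of the Ier2 or Ier3 differences passed.

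Dusp1, the phosphatase, was at 182, 189 and 206 in Control, close to one another. HMS-I1, at 142, 175 and 176, lay below all Control libraries, with a log2 difference of -0.23 (SE 0.35; adjusted p = 1, limma). TSA was split, with 328 in replicate 1, the highest of the 15 libraries, and 116 and 119 in replicates 2 and 3, the lowest. Its difference of -0.21 (SE 0.35) split into 0.82 (first set) and -0.80 (second set), and leaving out TSA replicate 1 gave -0.70 (unadjusted p = 0.0176, adjusted p = 0.165, limma). The adjusted p of this difference ran from 0.165 to 1 over all alternatives. MTX (164 to 215) and AA (158 to 220) overlapped Control on both sides, with differences of -0.02 and -0.03 (SE 0.35 each).

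Counted together, 2 of 9 members (Fos and Ier2) were higher in all 3 TSA libraries than in all 3 Control libraries, and 2.36% of tested genes were; 0 were lower in all 3, and 2.18% of genes were. Under AA 1 member (Atf3) was higher in all 3, and 2.81% of genes were, with 0 lower beside 2.23% of genes. Under HMS-I1 1 (Dusp1) was lower and 0 were higher, beside 1.35% of genes in each direction. Under MTX 0 members were higher and 0 lower, beside 1.32% and 1.15% of genes. The median log2 difference of the 9 members was MTX 0.12, HMS-I1 0.04, AA 0.40 and TSA 0.34, with 6, 5, 7 and 5 members higher. Over all tested genes the medians were -0.01, -0.02, -0.02 and 0.01, with 47.9%, 47.9%, 47.3% and 50.5% of genes higher. With the library set as a term the member medians were -0.13, -0.12, 0.25 and -0.06, with 4, 2, 7 and 3 members higher. The median of AA alone kept its sign.

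**Figure D3:**
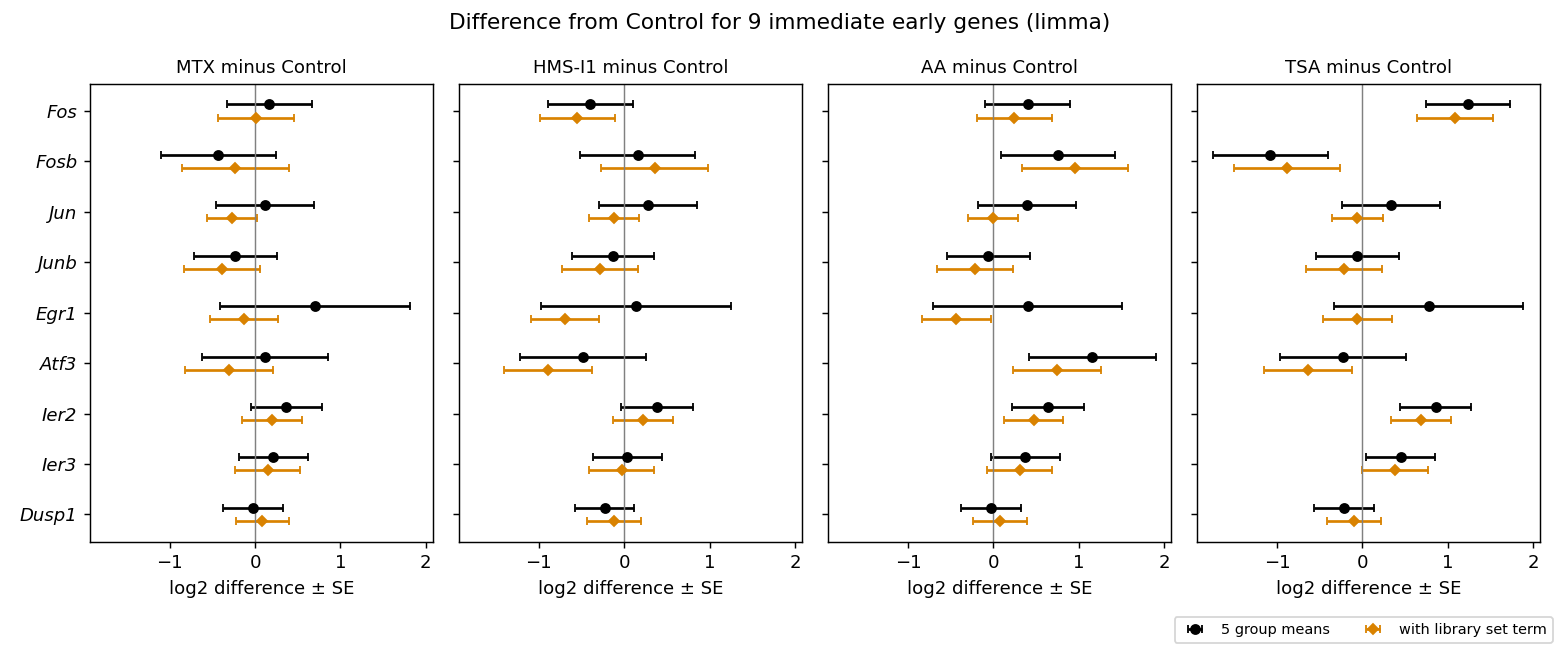
Log2 difference from Control of each member under MTX, HMS-I1, AA and TSA, with bars of 1 SE, from the model of 5 group means (black circles) and with the library set as a term (orange diamonds). Fos under TSA is at 1.24 and 1.08; Egr1 moves across 0 in every treatment when the set is a term.

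The members did not move as a block from library to library. Measured as deviation from the mean of the library's own set, AA replicate 3 stood highest on average (0.48) and HMS-I1 replicate 2 lowest (-0.44). HMS-I1 replicate 2 had the lowest value of the second set for 4 members (Fos, Atf3, Ier2 and Ier3). TSA replicate 3 had the highest value of the second set for Fos, Egr1 and Ier2. Yet Fosb (-0.50), Dusp1 (-0.45), Atf3 (-0.32) and Jun (-0.03) were below their set means there. TSA replicate 1 likewise held the highest Fos, Ier2 and Dusp1 of the first set and the lowest Jun and Junb. In all 4 treatments Junb and Ier3 were higher in replicate 3 than in replicate 2, with median log2 differences of 0.72 and 0.89, as were 16.0% of tested genes. No member was lower in all 4, and 10.4% of genes were.

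**Figure D4:**
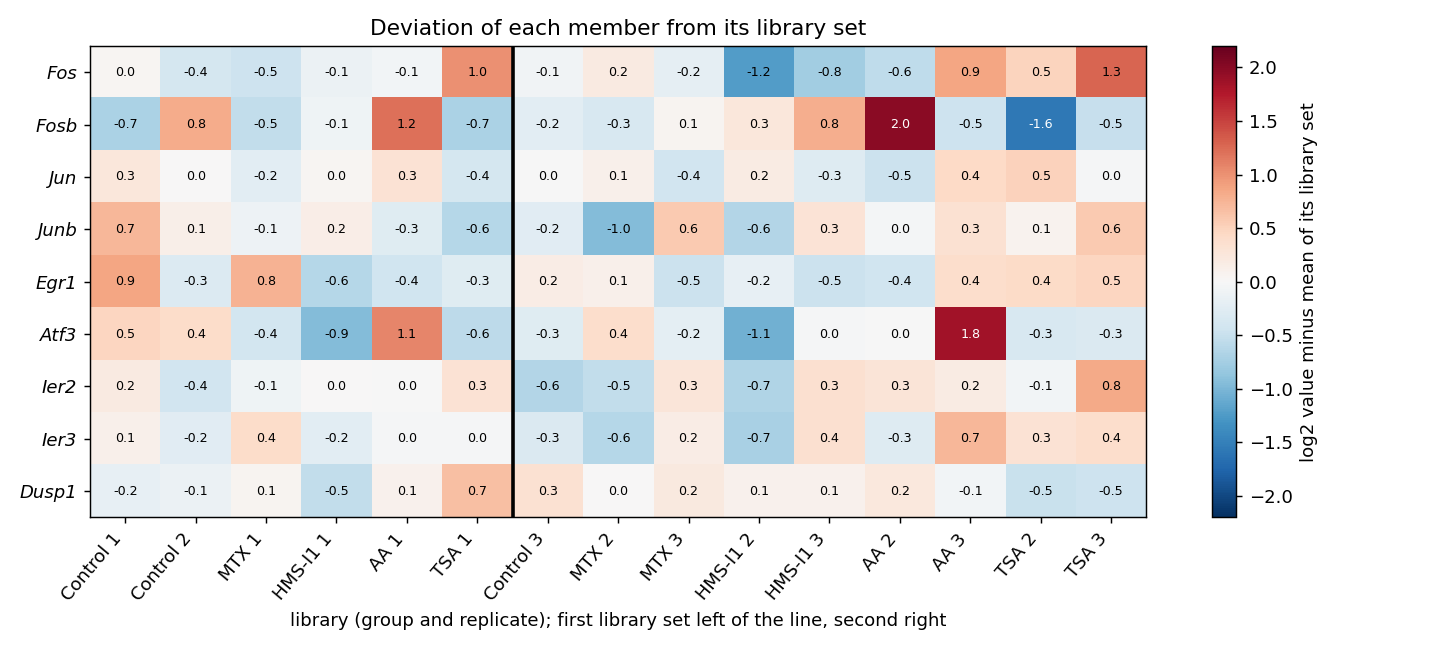
Log2 value of each member (rows) in each library (columns) minus the mean of that library's set, from blue (lower) to red (higher), with the first set left of the line. Deviations differ in sign within a library, as in TSA replicate 1, where Fos is at 1.0 and Jun at -0.4.

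Likeness to the mean of the 9 members was measured over the 15 libraries, after subtracting set means and scaling to unit SD, as the root mean square distance. The nearest genes outside the members were Itga5, an integrin subunit of the fibronectin receptor (0.47 SD units), Ren1, a renin (0.50), Uba7, the activating enzyme of a ubiquitin-like protein induced by interferon (0.51), Fkbp9, a prolyl isomerase of the reticulum (0.53), and Utp20, of ribosome assembly (0.54). Among 17896 genes the members themselves, which enter the mean, ranked from 51 (Atf3) and 174 (Ier3) to 8159 (Fosb) and 10409 (Dusp1).

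A further 45 immediate early genes, among them the Nr4a nuclear receptors, Klf factors, Myc and Gadd45 genes, were all tested and 0 passed. In AA 37 of 45 were higher than in Control (median 0.28), against 28 in MTX (0.05), 27 in HMS-I1 (0.09) and 26 in TSA (0.11). Control holds 2 libraries of the first set and each treatment 1, and these counts take no account of it. With the library set as a term they were 27 in AA (median 0.03), 17 in MTX (-0.12), 18 in HMS-I1 (-0.08) and 17 in TSA (-0.13). Of the 45, 12 were lower in all libraries of the first set than in all of the second and 1 was higher, beside 12% and 12.8% of all tested genes, and the median of the 45 was 0.70 higher in the second. Klf4, a factor of differentiating epithelium that is abundant in spermatids, had the smallest p. It was at 3095, 953 and 998 in TSA and 3359, 3143 and 2510 in Control, a difference of -1.06 (SE 0.38; adjusted p = 0.848, limma), and differed by -0.29 in HMS-I1 and -0.11 in MTX. Cebpd, a factor of acute inflammation, differed from Control by 0.89 in HMS-I1, 0.85 in AA, 0.69 in TSA and -0.08 in MTX (SE 0.46 each).

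Of 21 upstream factors and kinases, 0 passed, and the medians lay between 0.02 (TSA) and 0.04 (HMS-I1), with 15 of the 21 higher in MTX and 11 in each other treatment; with the set as a term 8 were higher in MTX, 7 in HMS-I1, 11 in AA and 9 in TSA. Crem, the cAMP-responsive activator of spermatid genes, differed from Control by -0.50 (SE 0.23) in TSA and by -0.08 to 0.30 in the other treatments. Mapk8, a stress kinase that phosphorylates Jun, differed by -0.32 (SE 0.25) in TSA and by -0.20 to 0.17 in the others. Lists that respond to warmth and low oxygen also had 0 members past the threshold. Heat shock genes were higher than Control in 10 of 12 members in MTX (median 0.16), HMS-I1 (0.32) and TSA (0.33), and in 11 in AA (0.20). With the library set as a term 7 were higher in MTX (median 0.02), 7 in HMS-I1 (0.05), 9 in AA (0.07) and 9 in TSA (0.13). Hsph1, a co-chaperone, differed by -0.63 (SE 0.33) in TSA and by -0.06 to 0.05 in the others, and Hspa1a, the inducible heat shock protein, by 0.36 (SE 0.34) in TSA and by -0.23 to 0.32 in the others. Of 12 low oxygen genes 11 were tested, and 8 were higher in MTX (median 0.18), 7 in HMS-I1 (0.02), 8 in AA (0.19) and 8 in TSA (0.34). With the set as a term these were 7 (0.04), 5 (-0.10), 5 (-0.08) and 7 (0.11). Ankrd37 differed by -0.52 (SE 0.57) in TSA and by -0.65 to 0.15 in the others. Pdk1, a kinase that inhibits the oxidation of pyruvate, differed by 0.35 (SE 0.35) in TSA and by 0.22 to 0.52 in the others.

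Beside the TSA values of Fos and Ier2 stand those of other cells in the same libraries. Sertoli markers were higher than Control in 10 of 10 members (median 0.52), Leydig in 8 of 8 (0.52), spermatogonia in 8 of 8 (0.56), macrophages in 8 of 11 (0.39), endothelium in 5 of 7 (0.21), myoid cells in 5 of 6 (0.36) and red cells in 5 of 5 (0.47). Round spermatid markers were higher in 0 of 6 (median -1.10), elongating spermatid in 0 of 6 (-0.87), spermatocyte in 3 of 8 (-0.12) and fat cell markers in 1 of 9 (-1.36); the single tested epididymis marker was at 0.13. With the library set as a term the medians were 0.18 for Sertoli, 0.28 for Leydig, 0.22 for spermatogonia, 0.17 for macrophages, 0.02 for endothelium, -0.06 for myoid cells, 0.17 for red cells, -1.10 for round and -0.52 for elongating spermatids, -0.12 for spermatocytes and -1.01 for fat cells. The summed levels of all these lists overlapped between TSA and Control. Round spermatid markers summed to 44032 in TSA replicate 1 and to 16420 and 25321 in replicates 2 and 3. In Control they summed to 39789 to 58035. In TSA 5 of the 6 had an unadjusted p under 0.05 (limma), beside 5.74% of tested genes, and 0 passed. Cabyr (round spermatids), Tnp2 (elongating spermatids) and Fabp4 (fat cells) lay below all Control libraries in TSA, beside 2.18% of tested genes. The part of these lists in the Fos and Ier2 values was not tested.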

How the data were processed

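RNA from whole testes was sequenced in 15 libraries, grouped by their titles. The submitters' processing notes name build GRCm39, DESeq2 1.34.0, Salmon 0.12.0 and also FastQC 0.11.9, without their roles; strand setting and annotation are not given in the sources used here. The deposited signal is a table of normalised counts that the authors scaled between libraries; no more than 9.75% of values under 60 came within 0.02 of a whole read. Of 36118 identifiers, 35825 matched a symbol of GENCODE M21, an annotation of an earlier build used for names and transcript lengths only.

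Values were analysed as log2(value + 1) over 17896 genes averaging at least 10, with limma 3.58.1 in R 4.3.3 (group means, eBayes with trend, two-sided, 10 residual degrees of freedom, Benjamini and Hochberg adjustment over all genes, threshold 0.05), and checked on simulated data. The members and lists were chosen with earlier results of these data known. All 9 members are reported, with up to 2 genes of smallest F-test p from the 4 response lists and the 5 genes nearest the members' mean; markers of 12 cell types are given as counts. Alternatives covered pseudocount, filter, scaling, library set, replicate block and leaving out each library. The library sets were told apart by the widest gap in mean histone value.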

Additional observations from a re-analysis of the deposited data

Results flagged for a closer look

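In the 9 members and 2 library sets, 18 groups of values were searched for a library far from the others, where chance alone flags about 1 in 20. Fos in TSA replicate 1, at 40.6 normalised counts, was the highest of the first set, and its gap to the next library was 0.665 of the range of log2 values of that set. Atf3 in AA replicate 3, at 81.8, was the highest of the second set, with a gap of 0.502 of the range. The other 16 groups held no such library.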

How the results depend on the processing

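No member passed the threshold under any alternative, so 0 of 9 held for all 4 comparisons and the F-test. Of the 36 differences between a treatment and Control, 13 kept their sign in every refit, Fos, Fosb, Ier2 and Ier3 under TSA and Fosb, Atf3, Ier2 and Ier3 under AA among them, and 23 changed it in at least 1. With the library set as a term, the sign changed under MTX Jun (-0.27), Egr1 (-0.13), Atf3 (-0.30), Dusp1 (0.086), under HMS-I1 Jun (-0.12), Egr1 (-0.70), Ier3 (-0.030), under AA Egr1 (-0.43), Dusp1 (0.080), under TSA Jun (-0.057), Egr1 (-0.059). With a replicate block and the set together, the sign changed under MTX Fosb (0.16), Jun (-0.35), Egr1 (-0.40), Atf3 (-0.081), Dusp1 (0.037), under HMS-I1 Jun (-0.19), Egr1 (-0.96), under AA Jun (-0.078), Egr1 (-0.70), Dusp1 (0.031), under TSA Jun (-0.14), Egr1 (-0.33). With libraries scaled to the same total, the sign changed under AA Junb (0.054), Dusp1 (0.085), under TSA Junb (0.048). With a common upper quartile, the sign changed under AA Dusp1 (0.0037). The cause was not tested. A kept sign is not a steady value: Ier3 under AA was 0.042 without AA replicate 3. Leaving out single libraries also turned signs. For MTX they ran over Fos -0.093 to 0.49, Fosb -0.72 to 0.096, Jun -0.22 to 0.53, Junb -0.67 to 0.095, Atf3 -0.32 to 0.68, Dusp1 -0.12 to 0.077. For HMS-I1 they ran over Fosb -0.13 to 0.69, Jun -0.016 to 0.63, Junb -0.38 to 0.093, Egr1 -0.54 to 1.05, Atf3 -1.01 to 0.052, Ier3 -0.28 to 0.26. For AA they ran over Fos -0.073 to 0.64, Junb -0.29 to 0.21, Egr1 -0.28 to 1.35, Dusp1 -0.14 to 0.098. For TSA they ran over Jun -0.091 to 0.93, Junb -0.41 to 0.39, Atf3 -0.47 to 0.26, Dusp1 -0.70 to 0.044. The count of genes past the threshold was 0 in each comparison. Over the alternatives it ran from 0 to 992 under TSA and from 0 to 246 in the F-test. It ran from 0 to 1 under MTX, HMS-I1 and AA. The 992 and the 246 came without TSA replicate 1, the only TSA library of the first set, so treatment and set were mixed there. The cause was not tested. The replicate block gave 0 genes in each comparison; Fos under TSA then had an adjusted p of 0.247 and Ier2 of 0.253 (limma; over all alternatives 0.232 to 1 and 0.247 to 1). By the labels, samples with the same number share only that number, but those numbered 1 and those numbered 3 also share a library set. The 8 of 12 same-numbered pairs with a correlation of deviations over 0.1 were those numbered 1 and 3 (range over all pairs -0.58 to 0.67). Pairs numbered 2, which lie across the sets, ran from -0.58 to -0.30. The 4 of 12 libraries that correlated best with their own number in Control were those numbered 3. Neither scaling changed the direction of a difference between the library sets. Depth limits Atf3, Fos, Ier3 and Fosb, which rested on under 30 reads in every library of the first set, and Egr1, which rested on 8.81 to 32.7 there. In the second set the fewest reads were about 9.6 for Fosb, 16.1 for Atf3 and 18.3 for Fos.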
